A study of Mus musculus with 12 samples.

Results

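The genes described here are 7 neighbours on the mouse X chromosome from 3 related families: *Tceal3* and *Tceal8*, *Bex1*, *Bex2* and *Bex4*, and *Armcx2* and *Armcx3*. They were taken by name from 12 tables of X-chromosome variants, keeping single-base variants read at least 20 times, and they are 7 of the 399 genes with such a site. They hold 68 of the 6488 sites. On build mm10 the members run from chrX:134756595-134761455 (*Armcx3*) to chrX:136590842-136668378 (*Tceal3*), a span of 1.91 Mb, in the order *Armcx3*, *Armcx2*, *Bex2*, *Bex4*, *Tceal8*, *Bex1* and *Tceal3*. Poly(A) RNA was sequenced from mouse cells reprogrammed with SeVdp(fKOSMaB), a Sendai virus vector, and from mouse embryonic fibroblasts (MEF) that received no vector. The MidK1 course received the vector and 30 nM Shield1, a small molecule that stabilises proteins carrying a destabilising domain, and was sampled on days 35, 52 and 56. The MidK2 course received the same vector and dose and was sampled on days 18, 22, 29 and 36. The LowK course received the vector with no Shield1 and was sampled on days 35, 52 and 56. MEF1 and MEF2 are untreated fibroblasts at day 0, and nothing in the labels says that they are separate cultures. The labels do not name the strains, the sex of the cells or whether the reprogrammed cells were a clone. Each course and day is 1 library, so a test below compares the reads of 2 libraries, not the conditions, and its interval covers counting error only. Reads were summed over the sites of a gene, and a read covering several sites was counted at each. Read totals over several sites are thus not numbers of distinct reads. Their intervals can be too narrow and their p-values too small.

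In female mammals each cell silences 1 of its X chromosomes, and cells that are reprogrammed to pluripotency can make the silent X active again. A base that differs between the X chromosomes shows from which of them an RNA read came. The quantity followed here is the reference share, the percent of reads at a variant site that carry the reference base instead of the variant base. A low share means that nearly all RNA came from variant-bearing copies, which is also what a variant shared by both X chromosomes would give. The Bex (brain expressed X-linked) and Tceal (transcription elongation factor A-like) genes encode small proteins with a shared domain and are widely transcribed in brain. Bex1 binds the neurotrophin receptor p75. The Armcx genes encode armadillo-repeat proteins, and Armcx3 sits on the outer membrane of mitochondria and takes part in their transport in neurons.

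Several of these genes are near copies of each other, which limits where a read can be placed, so the sequences around the decisive sites come first. *Tceal3* had 1 site read at least 20 times in all 12 libraries, at chrX:136667963 in coding sequence, where the variant changes the protein (A143T). Below are the 61 bases of the GENCODE transcripts around that site on build mm10, 5′ to 3′ on the coding strand, with the matching stretches of *Tceal5* and *Tceal6*. Capitals mark the site at base 31, counted from 1 at the 5′ end of each window, and every base that differs from *Tceal3*. The windows lie at chrX:136667933-136667993 (plus strand), chrX:136201331-136201391 (minus strand) and chrX:135209088-135209148 (minus strand).
Tceal3: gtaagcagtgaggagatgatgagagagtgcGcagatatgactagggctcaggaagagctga
Tceal5: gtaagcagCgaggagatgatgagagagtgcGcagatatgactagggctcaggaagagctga
Tceal6: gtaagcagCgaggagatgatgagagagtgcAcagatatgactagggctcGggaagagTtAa
The variant of *Tceal3* is G31A in this window. *Tceal5* differs from *Tceal3* here only by T9C and has the reference base at the site. *Tceal6* differs by 5 bases, 1 of which is G31A itself, so *Tceal6* RNA reads as the variant. Over the whole coding sequence *Tceal3* and *Tceal6* were 98.2% identical and *Tceal3* and *Tceal5* 89.7% identical, against 68.8% for *Tceal3* and *Tceal8*.

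The Bex pair shows the same limit at the most deeply read member site, chrX:136214366 in *Bex1* (Q71H), whose window lies at chrX:136214336-136214396 on the minus strand and has its *Bex2* counterpart at chrX:136066957-136067017, also on the minus strand. Capitals mark base 31 and the differences from *Bex1*.
Bex1: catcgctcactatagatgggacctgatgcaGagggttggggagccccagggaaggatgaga
Bex2: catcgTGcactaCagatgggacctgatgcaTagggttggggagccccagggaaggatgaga
The *Bex1* variant is G31T on the coding strand, and *Bex2* has that same base there. *Tceal8* stands for a member that reads can be assigned to. None of its 8 sites had a window of 151 transcript bases that matched another transcript at 95% or more, and its window at chrX:136170816-136170876 (minus strand) carries the synonymous variant A31G, in capitals.
Tceal8: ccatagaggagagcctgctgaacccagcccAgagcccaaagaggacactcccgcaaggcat
In all, 12 of the 68 member sites had such a near copy: 2 of 2 in *Tceal3*, 6 of 8 in *Bex4*, 2 of 6 in *Bex2*, 1 of 2 in *Bex1*, 1 of 13 in *Armcx3* and none of 29 in *Armcx2* or of 8 in *Tceal8*. Of the 68 sites, 38 lie in coding sequence, 21 in 3′ untranslated and 9 in 5′ untranslated sequence, and 23 of the coding variants change the protein.

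The libraries held 1507 to 3871 sites in 193 to 339 genes, with 138579 to 279031 reads over them, of which the members took 2054 to 7115. The tables fall in 2 sets that list variants down to different limits, MEF1, LowK and MidK1 in the first and MEF2 and MidK2 in the second, so each course was set against the MEF library of its own set. Positions are not listed where every read carries the reference base or where the variant reads fall under the limits of the table. The 15 X-linked genes listed as fibroblast-expressed took 4.95% to 7.73% of the covering reads in the 10 reprogrammed libraries, with 9 to 11 of them measured, against 50.6% in MEF1 and 46.3% in MEF2, with 14 and 12 measured. Of 10 pluripotency and germline genes, 2 to 5 were measured in reprogrammed libraries and 1 in each MEF library, and of 6 neural genes at most 1 was measured in any library.

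*Tceal3*, the only member that met the rule for a call, had a mostly variant site in fibroblasts and a mostly reference or mixed site after reprogramming. A gene was called where its reference share, over the sites listed in both libraries, differed by at least 20 percentage points with an adjusted p under 0.05 in a two-sided Fisher's exact test, adjusted over all genes of that pair of libraries (Benjamini-Hochberg). With Shield1, the share at chrX:136667963 in the MidK1 libraries was 83.9% of 56 reads on day 35, 87.2% of 39 reads on day 52 and 78.1% of 32 reads on day 56. In the LowK course it was 66.3% of 89 reads, 81.6% of 38 reads and 66.7% of 39 reads on the same days. MEF1, to which both courses were compared, had 14.3% of 28 reads (95% Wilson interval 5.7% to 31.5%). All 6 intervals of the reprogrammed libraries lay above that of MEF1, the lowest starting at 51.0%.

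In the MidK2 course the same *Tceal3* site had 60% of 55 reads on day 18, 81.4% of 43 on day 22, 56.1% of 41 on day 29 and 45.7% of 35 on day 36, while MEF2 had 0 reference reads of 29, which allows a share of up to 11.7% (upper Wilson limit, used wherever a limit is given for a count of 0). *Tceal3* was called in all 10 comparisons with the MEF library of its set. The differences were 52.0, 67.3 and 52.4 points in LowK (adjusted p = 2.98e-05, 7.98e-07 and 0.000145, Fisher's exact test), 69.6, 72.9 and 63.8 points in MidK1 (5.52e-09, 1.19e-08 and 2.89e-06) and 60, 81.4, 56.1 and 45.7 points in MidK2 (8.9e-08, 1.53e-12, 5.26e-07 and 8.15e-05). Among all genes tested, the share called was 1.23%, 1.76% and 4.91% for LowK on days 35, 52 and 56, 8.5%, 12.9% and 14.1% for MidK1, and 2.12%, 9.63%, 9.94% and 10.4% for MidK2 on days 18, 22, 29 and 36. The other 3 members that could be tested against MEF (*Tceal8*, *Armcx2* and *Armcx3*) were called in none of the 10 comparisons.

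**Figure D1:**
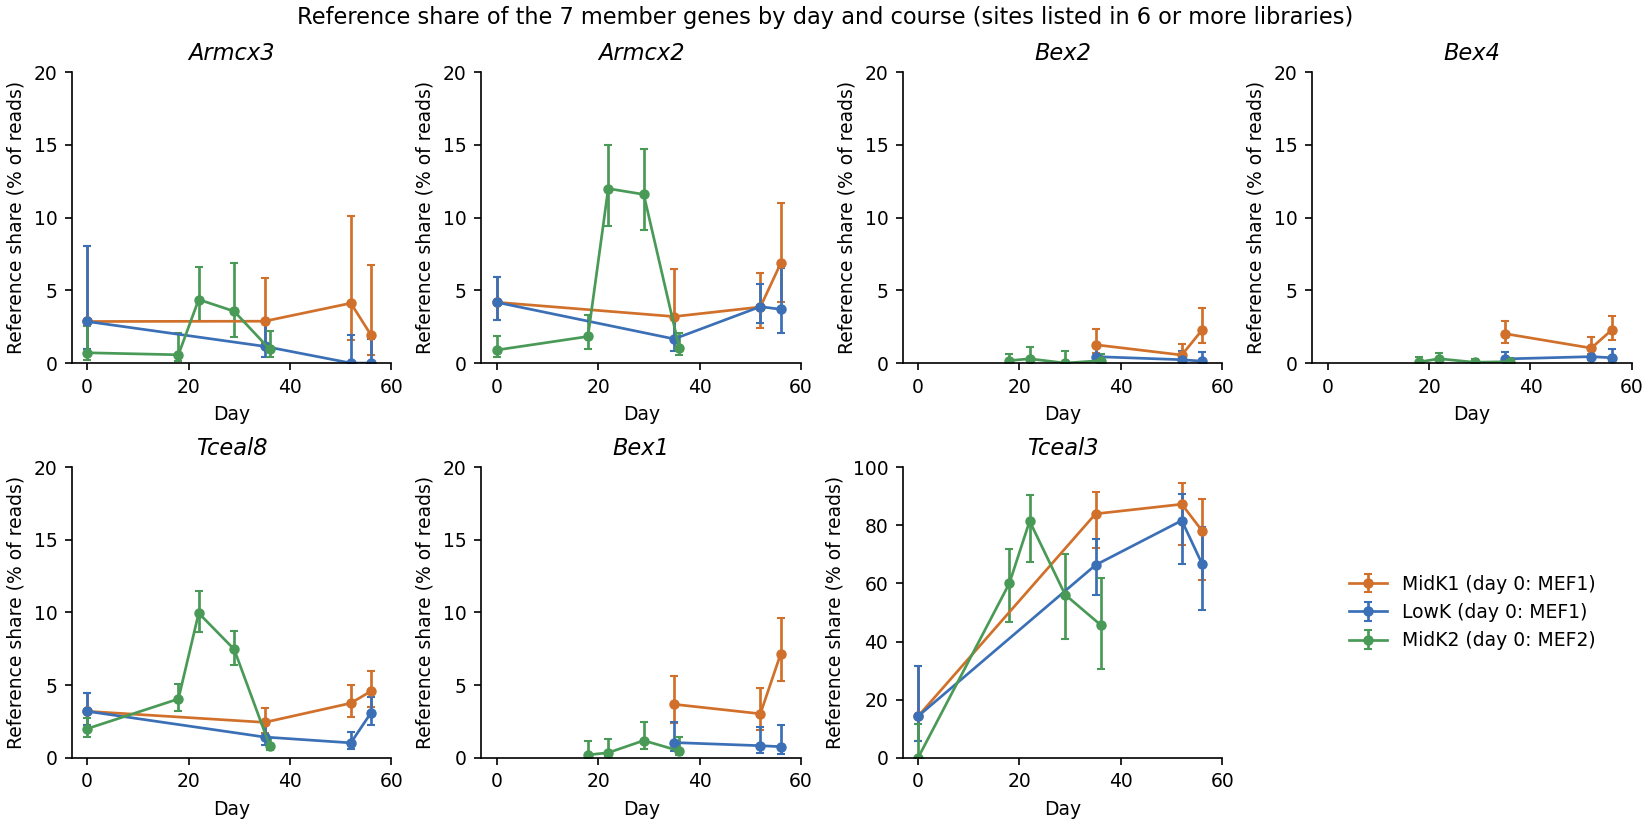
Reference share (percent of reads) of each member by day, at sites listed in at least 6 libraries, for MidK1 (orange), LowK (blue) and MidK2 (green), with the MEF library of the same table set at day 0 and 95% Wilson intervals as bars. The *Tceal3* axis runs to 100% and the others to 20%. *Tceal3* lies between 45.7% and 87.2% in every reprogrammed library, while the other members stay at or under 12%, and the Bex genes have no day 0 value.

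The *Tceal3* call rests on that single site and on reads that a near copy could supply. At 2 other *Tceal3* sites, both 5′ untranslated and too thinly read for the main test, chrX:136667138 had 14 of 14 variant reads in MidK2 on day 36, against 12 of 12 in MEF2 and 17 of 17 in MEF1. At chrX:136667158, 16 of 16 reads in MidK2 on day 36 and 10 of 10 in LowK on day 56 were variant, against 13 of 13 in each MEF library. No reference read was found at either site in the reprogrammed libraries that list it, while on the same MidK2 day the coding site had 16 of 35. The other reprogrammed libraries list neither site, and a site with few variant reads is not listed, so libraries with mostly reference reads there could be missing. Counts of 10 to 16 reads also leave room for a sizeable reference share. These 2 sites too are near copies of *Tceal6*, at 98.9% and 98.2% identity. Unlike at the coding site, *Tceal6* has the reference base at both, so its RNA would read as reference there. *Tceal5*, which carries the reference base at the matching place, had sites of its own listed in all 10 reprogrammed libraries, on 28 to 167 reads, and in neither MEF library. *Tceal6*, which carries the variant base, was listed on 51 reads in MEF2 and 20 in MEF1, and in reprogrammed cells only in MidK2, on 60 reads on day 18 and 22 on day 36. The part of these copies in the *Tceal3* values was not tested. With every site that has a near copy left out, no *Tceal3* site remained, and with 50 reads required none was deep enough in MEF.

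*Tceal8* and *Armcx2* had smaller rises on days 22 and 29 of the MidK2 course that were no longer seen on day 36. *Tceal8*, at the 7 sites listed in every library, had 2.00% reference reads in MEF2, 4.05% on day 18, 9.95% on day 22, 7.46% on day 29 and 0.83% on day 36, on 1728 to 1928 reads a library. The 7 sites had 8.91% to 12.2% on day 22, 6.21% to 10.6% on day 29 and 0.543% to 1.36% on day 36. Several of them lie within the length of a 76-base read of each other, so the same reads can be counted at more than 1 site. Their agreement is thus not that of 7 separate measurements. *Armcx2* had 0.899% in MEF2, 1.83% on day 18, 12% on day 22, 11.6% on day 29 and 1.06% on day 36, at 13 or 14 sites and 524 to 779 reads. *Armcx3* had 0.709%, 0.571%, 4.37%, 3.56% and 0.951% on the same days at sites listed in at least 6 libraries, with 225 to 526 reads. Days 22 and 29 were thus the high ones in all 3 genes, with lower values before and after.

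*Tceal8* was already 2.05 points above MEF2 on day 18 (adjusted p = 0.00166, Fisher's exact test), which did not pass at the deepest shared site alone (2.78 points, 0.29) or against MEF1, which is of the other table set (0.858 points, 0.59). Against MEF2 on day 22, *Tceal8* was 7.95 points higher (adjusted p = 1.69e-24, Fisher's exact test), *Armcx2* 11.1 points (4.23e-18) and *Armcx3* 3.66 points (0.006), all passing the test on p but not the 20-point limit. At the deepest shared site alone *Tceal8* (7.28 points, 0.000103) and *Armcx2* (9.93 points, 0.0294) still passed Fisher's exact test and *Armcx3* did not (6.67 points, 0.298), nor did *Armcx3* against MEF1 (0.268 points, adjusted p = 1). With *Tceal3*, 2 of 4 members tested passed on p alone on day 18, 4 of 4 on day 22, 3 of 4 on day 29 and 2 of 4 on day 36. Over all genes the share that passed on p alone was 29.1%, 67.9%, 54.7% and 24.5% on these days. The median difference over all genes was 1.77, 7.95, 6.24 and 0.605 points, against 1.47, 9.55, 9.11 and 0.0821 points over the 4 members. On day 29 *Armcx2* was 10.8 points above MEF2 (2.55e-17) and *Armcx3* 2.70 points (0.094). The *Armcx2* difference was 5.29 points (0.0129) with at least 50 reads per site and did not pass at the deepest shared site alone (4.7 points, 0.355, Fisher's exact test). *Tceal8* was 7.39 points above MEF2 (5.58e-11) over 8 shared sites, or 5.45 points (4.69e-15) over the 7 that all libraries list, 5.36 points (0.00233) at the deepest one, and 4.26 points (9.68e-06) against MEF1. By day 36 *Armcx2* (1.02% against 1.10% in MEF2, adjusted p = 1) and *Armcx3* (0.951% against 0.709%, adjusted p = 1) had no difference that passed Fisher's exact test, and *Tceal8* was 1.17 points lower than in MEF2 (0.0104). That difference did not pass at the deepest shared site (-1.48 points, 0.512), and it was -2.37 points against MEF1 (2.17e-05, Fisher's exact test). The fibroblast-expressed list had reference shares of 20.5%, 38.2%, 37.1% and 24.8% on days 18, 22, 29 and 36, against 2.96% in MEF2. Its part in the members' values was not tested.

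**Figure D2:**
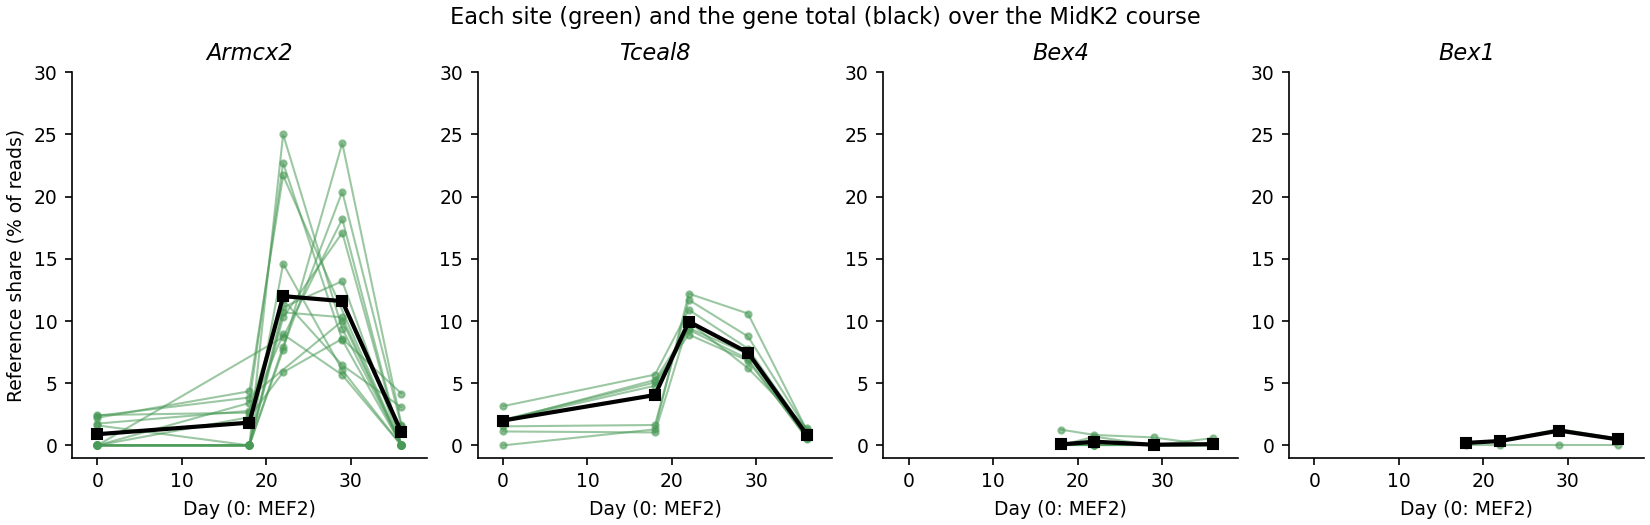
Reference share (percent of reads) of single sites (green lines) and of the gene total (black squares) over the MidK2 course, with MEF2 at day 0, at sites listed in at least 6 libraries. Armcx2 and Tceal8 sites are high on days 22 and 29 and low on day 36, while Bex4 and Bex1 totals stay at or under 1.19% throughout.

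From day to day within a course no member was called. Over all genes, the share called was 1.23% (LowK day 52 against 35), 0.395% (LowK day 56 against 52), 2.56% and 0.424% (the same steps of MidK1), and 2.46%, 0.714% and 1.38% (MidK2 day 22 against 18, 29 against 22 and 36 against 29). On p alone, 3 of 7 members passed at MidK2 day 22 against day 18, where 41.1% of all genes did: *Armcx2* rose by 10.4 points (adjusted p = 1.74e-10, Fisher's exact test), *Tceal8* by 5.90 points (5.36e-11) and *Armcx3* by 3.45 points (0.00764). At the deepest shared site alone none of the 3 passed Fisher's exact test (8.91 points, 0.255, for *Armcx2*, 4.49 points, 0.155, for *Tceal8* and 4.29 points, 0.55, for *Armcx3*), nor did *Armcx3* with at least 50 reads per site (2.5 points, 0.285). From day 22 to day 29 no member passed and 13.2% of all genes did. At day 36 against day 29, where 41.0% of all genes passed, 2 of 7 members did: *Armcx2* fell by 10.5 points (4.33e-15) and *Tceal8* fell by 6.63 points (4.63e-26). The *Armcx2* step was -5.6 points (0.0154) with at least 50 reads per site and did not pass at the deepest shared site (-3.39 points, 0.857), where *Tceal8* did (-6.41 points, 8.68e-05, Fisher's exact test). *Tceal3* had differences of 21.4, -25.3 and -10.4 points over these 3 steps, with adjusted p = 0.0641, 0.096 and 0.697 by Fisher's exact test on 35 to 55 reads a library.

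In the LowK and MidK1 courses the steps were smaller. *Tceal8* rose by 2.08 points at LowK day 56 against day 52 (adjusted p = 0.00244, Fisher's exact test), the only member of 7 to pass there, with 16.2% of all genes passing, and it did not pass at the deepest shared site (1.8 points, 0.854). At MidK1 day 56 against day 52, where 25.8% of all genes passed, *Bex1* rose by 4.11 points (0.0115) and *Bex2* by 1.71 points (0.0196). At the deepest shared site alone neither passed (3.8 points, 0.132, for *Bex1* and 1.09 points, 0.751, for *Bex2*), nor did *Bex1* at sites without near copies (8.41 points, 0.397), where *Bex2* did (1.71 points, 0.0203, Fisher's exact test). No member passed at day 52 against day 35 in either course, with 14.0% of all genes passing in LowK and 15.8% in MidK1.

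*Bex1*, *Bex2* and *Bex4* had no listed site in either MEF library and were read deeply in all 10 reprogrammed libraries, nearly always from the variant. A gene is missing from a table where fewer than 10 reads cover its sites, where all reads carry the reference base, or where the variant reads fall under the limits of that table, and which of these holds in fibroblasts cannot be told apart. Nor can fewer cells that transcribe a gene be told apart from less RNA per cell. *Bex1* had 1 to 38 reference reads of 391 to 627 per library, *Bex4* 1 to 29 of 1094 to 2020, and *Bex2*, at the 4 sites listed in at least 6 libraries, 0 to 14 of 474 to 1181. Such genes numbered 50 in all, listed in every reprogrammed library and in no MEF library, with a median over genes of 4.06%. The members' medians over the 10 libraries were 0.332% for *Bex4*, 0.363% for *Bex2* and 0.943% for *Bex1*, the ranks 2, 3 and 6 from the lowest of the 50. These medians and ranks, and the 4.06%, are over all sites of at least 20 reads. They thus include sites that few libraries list, such as the one that puts *Bex2* at 26.4% on MidK2 day 29.

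In MidK2 the Bex genes stayed under *Tceal8*, their neighbour. *Bex1* had 0.201%, 0.352%, 1.19% and 0.478% on days 18, 22, 29 and 36. *Bex4* had 0.0754%, 0.298%, 0.0558% and 0.099% on those days. *Bex2*, at its recurrent sites, had 0.169%, 0.297%, 0% and 0.171%. On day 29 that was 0 of 474 reads summed over sites, with an upper limit of 0.804%. The steps between these days passed for none of the 3 genes. All 4 upper limits of *Bex4* lay at or under 0.695%, against a lower limit of 8.63% for *Tceal8* on day 22. These limits come from counts summed over sites, some close enough to share reads, so they are narrower than distinct reads would give. No reference read was found at some of their sites with no near copy: the 3′ untranslated *Bex1* site chrX:136214006 had 0 reference reads of 57, 29, 56 and 67 on the 4 days, and the 3′ untranslated *Bex4* site chrX:136140253 had 0 of 60, 77, 82 and 86. Such counts cannot show shares as low as the gene totals. The 0 of 29 on day 22 allows up to 11.7%, above the 9.95% of *Tceal8* that day.

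With Shield1, the shares of all 3 Bex genes were slightly higher in MidK1 than in LowK cells, and the difference passed on p for all 3 genes on day 56 and for *Bex1* on all 3 days. On day 56 *Bex1* had 7.14% reference reads (38 of 532) in MidK1, against 0.767% (3 of 391) in LowK. *Bex2* had 2.27% in MidK1 against 0.134% in LowK at 3 shared sites, and *Bex4* 2.27% in MidK1 against 0.366% in LowK at 8 shared sites. The differences of 6.38, 2.13 and 1.90 points passed on p (adjusted p = 5.9e-06, 0.000978 and 0.000275, Fisher's exact test). On day 35 *Bex1* (3.68% in MidK1 against 1.05% in LowK, adjusted p = 0.0252) and *Bex4* (2.02% against 0.286%, 5.35e-05) passed Fisher's exact test. On day 52 *Bex1* (3.03% against 0.835%, 0.0463) and *Tceal8* (3.76% against 1.03%, 8.74e-05) passed. That *Tceal8* difference did not pass at the deepest shared site (2.33 points, 0.571), nor did that of *Bex1* with at least 50 reads per site (2.16 points, 0.0646) or at least 10 (2.2 points, 0.052), by the same exact test.

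Thus 2 of 7 members passed on p on day 35, 2 of 7 on day 52 and 3 of 7 on day 56, where 35.3%, 30.3% and 37.4% of all genes did, and none of the 7 was called, where 7.66%, 8.61% and 8.64% of all genes were. The members' shares were higher in MidK1 for 7, 6 and 7 of the 7 genes, and among all genes for 75.7%, 73.0% and 76.5%. The median difference was 1.73, 2.20 and 2.13 points over the members and 2.00, 1.92 and 2.90 points over all genes. *Tceal3* differed by 17.6, 5.6 and 11.5 points on the 3 days (adjusted p = 0.0594, 0.764 and 0.509, Fisher's exact test), and *Armcx2* and *Armcx3* did not pass on any day. At sites without near copies, the *Bex1* difference on day 56 was 11.1 points (4 reference reads of 36 in MidK1 against 0 of 30 in LowK, adjusted p = 0.243, Fisher's exact test). Kept to such sites, *Bex1* also lost its passing p on days 35 and 52 (adjusted p = 1 on both), as did *Bex4* on day 35 (0 points, adjusted p = 1) and day 56 (3.03 points, 0.216), while *Bex2* on day 56 kept 2.13 points (0.00103, Fisher's exact test). At the single deepest shared site *Bex2* on day 56 did not pass (1.65 points, 0.181), nor did *Bex1* on days 35 and 52 (0.0794 and 0.15) or *Bex4* on day 35 (0.592), while *Bex1* (6.02 points, 9.36e-05) and *Bex4* (3.16 points, 0.0314) on day 56 did, by the same exact test.

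**Figure D3:**
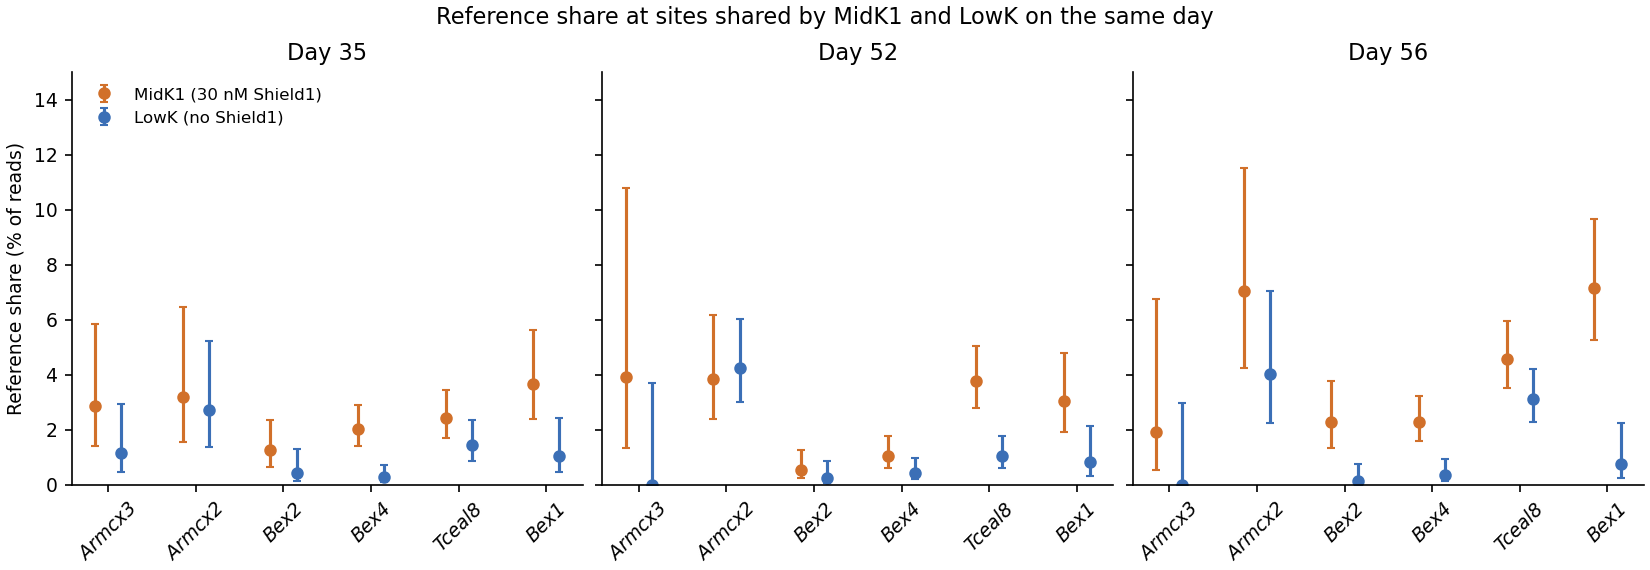
Reference share (percent of reads) of 6 members at sites shared by MidK1 (orange, 30 nM Shield1) and LowK (blue, no Shield1) on days 35, 52 and 56, with 95% Wilson intervals. *Bex1* on day 56 has the widest gap, 7.14% in MidK1 against 0.767% in LowK, and the intervals of *Armcx2* and of *Armcx3* overlap on each day. *Tceal3* is left out because its values run to 87.2%.

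Set against fibroblasts, *Tceal8* and the Armcx genes stayed almost wholly variant in LowK and MidK1. *Tceal8* had 1.43%, 1.03% and 3.11% in LowK and 2.44%, 3.76% and 4.59% in MidK1 on days 35, 52 and 56 at its 7 sites, against 3.20% in MEF1. It fell by 1.77 points on LowK day 35 (adjusted p = 0.0429, Fisher's exact test) and by 2.17 points on day 52 (0.00271), and passed on no other day. At the deepest shared site neither passed (-1.94 points, 0.7, on day 35 and -0.0463 points, adjusted p = 1, on day 52), and against MEF2 the day 35 difference was -0.575 points (0.658) and that of day 52 -3.29 points (0.00708, Fisher's exact test). *Armcx2*, at sites shared with MEF1, differed by -2.68, -0.108 and -0.0938 points in LowK and by 0.565, -0.472 and 2.75 points in MidK1, and *Armcx3* by -3.12 to 0.683 points over the 6 libraries, and none of these passed. With *Tceal3* counted, 2, 2 and 1 of 4 members passed on p in LowK, where 18.4%, 22.4% and 29.4% of all genes did, and 1 of 4 on each MidK1 day, where 28.8%, 29.0% and 42.3% did. *Armcx3* had 0 reference reads of 193 on LowK day 52 and 0 of 232 on day 56, summed over sites that can share reads. The upper limits of 1.95% and 1.63% are thus lower than distinct reads would give.

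The fibroblast libraries differed from each other at the members by less than the 20-point limit. *Armcx2* was 2.99 points lower in MEF2 than in MEF1 (1.05% against 4.03%, adjusted p = 0.00053, Fisher's exact test), 1 of 4 members to pass on p, where 30.5% of all genes did, and it did not pass at the deepest shared site (-0.373 points, adjusted p = 1) or with at least 50 reads per site (-2.55 points, 0.797). *Tceal8* was 1.19 points lower (0.15), *Armcx3* 2.19 points lower (0.577) and *Tceal3* 14.3 points lower (0.145). No gene at all was called in this pair (0.0%), while 30.5% passed on p, and the tables of MEF2 and MEF1 were made with different limits.

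Some high gene totals came from sites that only a few libraries list. Over all sites of at least 20 reads *Armcx2* had 33.6% reference reads in MidK2 on day 29, *Bex2* 26.4% and *Tceal8* 18.5% on the same day, and *Armcx3* 19.2% on day 22. Without the sites listed in fewer than 6 libraries these values were 11.6%, 0%, 7.46% and 4.37%. The *Bex2* value came from chrX:136067005, listed in that 1 library with 12 variant reads of 186. Its window matches *Bex1* at 96.8%. The *Tceal8* value came from chrX:136170656, with 17 variant reads of 279, a site also listed in MEF2 (13 of 204), MidK1 day 35 (9 of 84) and LowK day 52 (12 of 106). Every library also listed an insertion of AA directly after that base, on 245 of 309 reads in MidK2 on day 29 and 167 of 225 in MEF2. Reads with that insertion but without the base variant count as reference here, so this site does not give the share of reference-bearing copies. *Armcx2* had 6 such sites on MidK2 day 29, each seen in no other library, with 2 or 3 variant reads of 21 to 40. *Tceal3* had 1 in MEF2, chrX:136667909 (Q125*), with 2 variant reads of 27. At each of these sites over 50% of the reads lacked the listed variant. Summed over all sites of each library instead of the shared ones, the MEF2 site of *Tceal8* turns its MidK2 differences on days 18 and 22 to -7.06 and -1.16 points, and the LowK day 52 site turns the difference of *Tceal8* from MEF1 to 4.63 points and that of MidK1 from LowK to -4.07 points. The MEF2 site of *Tceal3* lowers its MidK2 differences to 15.4, 11.5 and 1.07 points on days 18, 29 and 36, none of them called.

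**Figure D4:**
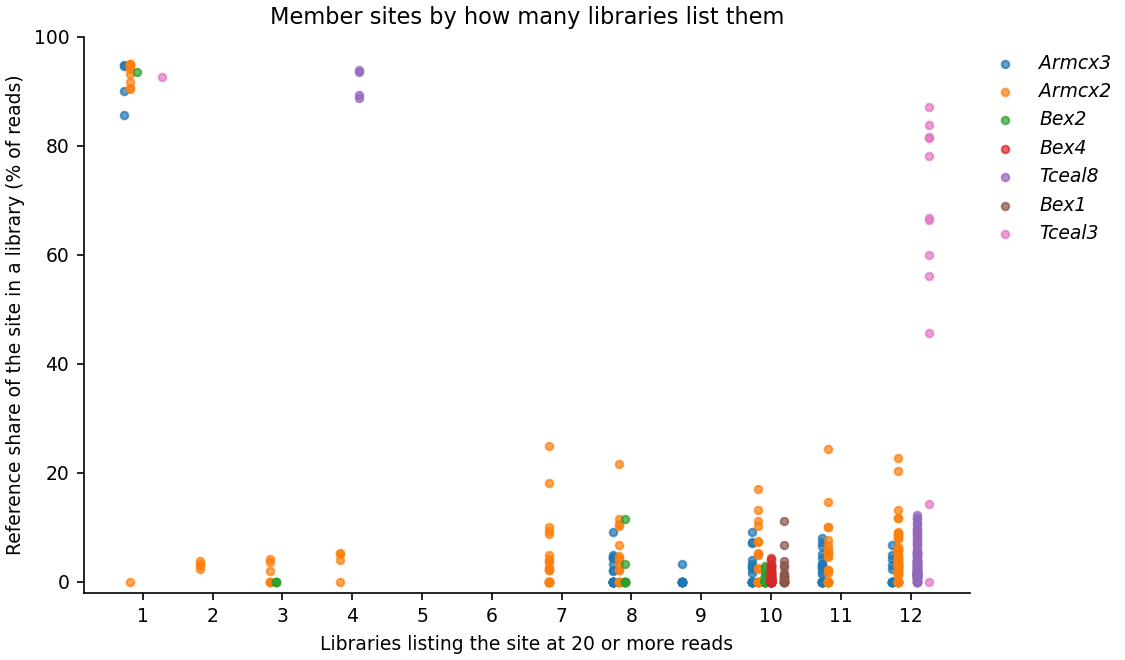
Reference share (percent of reads) of each member site in each library, by the number of libraries that list the site at 20 or more reads, coloured by gene and shifted sideways for view. Apart from the *Tceal3* site at 12 libraries, sites over 50% lie at 1 library or at 4 libraries, and those listed in 6 or more libraries stay at or under 25.0%.

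Of the other Bex, Tceal, Armcx, Gprasp and Arxes genes of the X chromosome, 13 had sites, and none was called in any of the 21 comparisons. The 3 with most reads were *Wbp5*, also named *Tceal9*, *Bex3*, a partner of the p75 neurotrophin receptor, and *Armcx1*. *Wbp5* had 6.38% in MEF2 and 10%, 21.4%, 16.4% and 6.50% in MidK2 on days 18, 22, 29 and 36. Its highest site raised these totals, at 31.4% in MEF2 and 34.3%, 45.6%, 43.9% and 34.6% on those days. Its median site had 2.21% in MEF2 and 6.57%, 18.8%, 12.5% and 1.94%. *Bex3* had 0.688% in MEF2 and 2.24%, 10.6%, 7.43% and 1.71% on those days. Against MEF2 on day 22, *Wbp5* rose by 15 points (adjusted p = 5e-76, Fisher's exact test) and *Bex3* by 9.91 points (1.13e-42). These were the 2 of 4 family genes tested that passed, where 67.9% of all genes did. *Bex3*, unlike *Bex1*, *Bex2* and *Bex4*, was thus listed in fibroblasts and had its highest MidK2 shares on the same days as *Tceal8* and *Armcx2*. *Armcx1* was listed in no MEF library. At the sites shared by both days it had 11.7% on MidK2 day 22 against 6.60% on day 18 (adjusted p = 0.00909, Fisher's exact test), and 6.04% on day 36 against 9.25% on day 29 (0.126).

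Within 1 Mb of the members lay 17 other genes with sites, and none of those tested was called in any comparison. The 3 with most reads were *Esx1*, *Morf4l2* and *Cstf2*. *Morf4l2*, which encodes a chromatin-associated protein of the MRG family, had 1.84% in MEF2 and 3.17%, 10.3%, 6.97% and 1.93% in MidK2 on days 18, 22, 29 and 36, again high on days 22 and 29, and was 8.45 points above MEF2 on day 22 (adjusted p = 5.09e-15, Fisher's exact test). *Esx1*, a homeobox gene of the placenta, was not listed in MEF, and its sites were split in all 10 reprogrammed libraries: 3 to 6 of its 14 to 17 sites were over 50%, while the median site had 0.18% to 3.2%. *Cstf2*, a subunit of the cleavage stimulation factor, had 1.2% to 4.13% in LowK and MidK1 libraries, and median sites of 0% to 3% in MidK2, where 2 to 4 sites over 50% raised its totals. The genes whose shares lay nearest to those of *Tceal3*, by the mean absolute difference over at least 8 libraries, were *Cxx1b* (14.2 points over 8 libraries), *Kdm6a* (19.2 over 10), *Ddx3x* (19.7 over 12), *Bgn* (20.1 over 10) and *Gm7331* (21.2 over 8). None of them was close: the nearest gene of each other member lay 0.375 (*Bex4*) to 2.17 points (*Armcx2*) away. All sites were used for this, so *Tceal3* in MEF2 entered at 44.6%, which includes the thinly supported site chrX:136667909.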

How the data were processed

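Per the labels, libraries were made from 500 ng of total RNA by poly(A) selection and a directional kit and read as paired 76-base reads. The authors called variants in CLC Genomics Workbench (Basic Variant Call), per the series' design text, on build mm10 according to the submitters' processing notes. Neither the aligner nor its strand use nor a caller setting is given in the sources used here. A variant's row gives, per the file headers, the count of reads with it, the count of covering reads and the percent with it. The deposited average quality score is in 7 of the 12 tables. In the files the lowest variant count was 5 in the table set of MEF1, LowK and MidK1 and 2 in that of MEF2 and MidK2, and the lowest coverage was 10 in both. Reference reads are coverage minus variant count. Sites needed 20 reads, and sites with several gene names took the gene whose GENCODE M21 exon holds them. Near copies were found with blastn 2.17.0 on 151-base transcript windows, at 95% identity over at least 76 bases. Fisher's exact test (scipy 1.17.1) summed reads over shared sites, and a read that covers several sites was counted at each. It was checked on simulated reads, and the outcome of that check is not given here. The gene names to print were the 7 members, the family genes called or among the 3 with most reads, the same for position neighbours, and the 5 genes most like the member called most often. The members and lists were chosen with earlier results of these data known. Alternatives were the read minimum, the sites used, the size limit, base quality and the other MEF library.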

Additional observations from a re-analysis of the deposited data

Results flagged for a closer look

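Insertions and deletions of the members were not used as sites. The percent of reads without the listed allele was more than 20 points above that of the MEF library of the same table set at 2 of them. At the deletion in *Armcx3* at chrX:134760162 it was 39.1% of 46 reads in MidK1 on day 35, against 15.4% of 26 reads in MEF1, and on the same day 15 of 46 reads carried a shorter, overlapping deletion at chrX:134760163. At the insertion in *Tceal8* at chrX:136170419 it was 38.5% of 161 reads in MidK2 on day 29, against 15.8% of 139 reads in MEF2, and on the same day 13 of 173 reads carried a longer insertion at that place. Over the 12 libraries the *Armcx3* value ran from 14.7% to 39.1% and the *Tceal8* value from 15.8% to 38.5%, with 31.7% in MEF1. Neither difference was tested.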

How the results depend on the processing

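The numbers of members called were 3 of 12 tests (LowK), 3 of 12 (MidK1) and 4 of 16 (MidK2) against MEF, and 0 in the other kinds of comparison. They did not change with 10 reads per site, the single deepest site, base quality of at least 30, positions with 1 variant allele only, or sites with 1 gene name only. With 50 reads per site the 3 counts against MEF were 0, 0 and 0, because *Tceal3* had no site that deep in MEF. Without near copies in transcripts, an alternative chosen after seeing the data, they were 0, 0 and 0, because *Tceal3* had no site left. With only sites listed in at least 6 libraries, also chosen after seeing the data, they stayed at 3, 3 and 4. The *Tceal3* site is listed in all 12 libraries, so this setting too used the same reads. Without MEF replicate 1 (LowK and MidK1) or 2 (MidK2), each course set against the other MEF library, the counts ran from 3 to 4, as before. A 10-point limit gave 2 calls between days and 6 for MidK2 against MEF2, the added ones all of *Armcx2*. The share of all genes called at that limit is not given here, so these counts cannot be set against it.

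Summing all sites of each library instead of shared ones gave 2 calls for MidK2 against MEF2, 6 between days and 1 for MEF2 against MEF1. For these counts too the share of all genes called is not given here. This way of summing turned 9 differences round, in points: *Tceal8* at LowK day 52 against MEF1 (4.63) and day 56 against 52 (-4.72), at MidK2 days 18 and 22 against MEF2 (-7.06 and -1.16) and at MidK1 against LowK on day 52 (-4.07), *Bex2* at MidK2 day 29 against 22 (26.1) and 36 against 29 (-26.2), and *Tceal3* (30.4) and *Armcx2* (5.88) in MEF2 against MEF1. Here the sums differ only by sites listed in 1 of the 2 libraries. Another 49 differences with an adjusted p of 0.05 or more changed sign under an alternative, and 45 of 293 recomputed gene shares left their 95% Wilson interval.

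No paired analysis was possible because each comparison is between 2 single libraries that share no replicate pair. The 3 days that MidK1 and LowK share are time points and were compared day by day. Near copies in the genome were not looked for, since only transcripts were at hand. Depth limits *Tceal3* most, at 28 to 89 reads.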
